A study of Phaseolus vulgaris with 6 samples.

Results

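The genes described here are the abundant pod transcripts that carried no annotation. They were taken from the table of 19598 genes that the study deposited for developing pods of common bean (Phaseolus vulgaris), by a rule with 2 conditions. The homology annotation (to Arabidopsis thaliana) had to be empty, and the mean of the Albion and Voyager values had to be at least 100 FPKM. FPKM is a gene's fragment count per length of its exons and per total of mapped fragments. The rule found 150 genes, which were 0.765% of the listed genes. The members were thus chosen by the FPKM values of both genotypes, and the height of their level is given as a description and has no test. None of the 150 genes carried a symbol in the gene family column either, while 752 of the 1307 annotated genes at or above the same level did.

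Albion and Voyager are navy bean cultivars that differ in seed zinc, with Albion labelled as the low zinc genotype and Voyager as the normal one. Both were grown with sufficient zinc, and pods from 3 replicate pots of each cultivar were sequenced, 6 samples in all with 2 pods ground for each. The labels give a pod age of 20 days after anthesis and the study's text gives a younger one. Whole pods were used, so wall and seed were measured together, and fewer cells of a kind and less RNA per cell cannot be told apart. The study also states that seed made up a larger share of pod weight in Albion than in Voyager. The table holds 1 pooled value per gene and genotype, with no replicate values and no read counts. No spread and no test of the genotypes can therefore be given for any value below, and the depth behind a value is unknown.

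An empty homology annotation says that no similar Arabidopsis protein was assigned to a gene model. Such models can be genes found in a narrow group of plants, fast-evolving small secreted proteins, very short open reading frames, or models that cover a part of a transcript. In legume pods the most abundant transcripts usually encode storage proteins, lipid transfer proteins and photosynthetic proteins, which are well annotated. In these libraries 33 of the 138 seed-annotated genes (cupin, albumin, oleosin, late embryogenesis and seed maturation genes) that reached 1 FPKM had a mean of at least 100 FPKM. For photosynthetic genes of the green wall the number was 46 of 98. The seed list summed to 3.16% of all FPKM (Albion) and 3.00% (Voyager), and the green wall list to 3.06% and 2.50%. Lignifying and vascular genes summed to 0.197% and 0.190%, and genes annotated to pollen or anther, organs that pods lack, to 0.204% and 0.154%. For the pollen and anther list, 3 of 17 genes reached 100 FPKM, and for the lignifying and vascular list 6 of 43. A list for organs that pods lack was thus about as abundant as one for a tissue they hold. For this pair of lists, the words of an annotation therefore did not show whether the tissue they name was part of the pod. In what part of the pod the unannotated genes were expressed was not tested.

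The minimum of 100 FPKM by itself gives the 150 genes a share of summed FPKM above their 0.765% of the listed genes. The size of that share is given here as a description. Their sum was 124951 FPKM for Albion, or 15.0% of all FPKM, and 188310 FPKM for Voyager, or 19.8%. The 2745 unannotated genes under 100 FPKM summed to 4.523% and 4.196%. The 1307 abundant annotated genes, which had the same minimum mean, were 6.67% of the listed genes and summed to 48.1% and 46.3%. FPKM is a value per length, so a share of summed FPKM counts transcripts and not reads. When each value was multiplied by the length of its locus, the share of the 150 genes was 4.09% in Albion and 4.89% in Voyager. Locus length includes introns, and exon lengths were not used here.

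The share of genes without an annotation was lower at higher levels up to 1000 FPKM and was highest above that. It was 22.6% under 1 FPKM, 17.0% from 1 to 10 FPKM, 12.6% from 10 to 100 FPKM and 9.14% from 100 to 1000 FPKM. Above 1000 FPKM it was 33.8%, which was 23 of 68 genes. By rank of the mean, 11 of the first 20 genes had no annotation, 25 of the first 100 and 70 of the first 500. The 23 genes above 1000 FPKM summed to 11.1% of all FPKM for Albion and 15.9% for Voyager, and the 127 others to 3.98% and 3.96%.

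**Figure D1:**
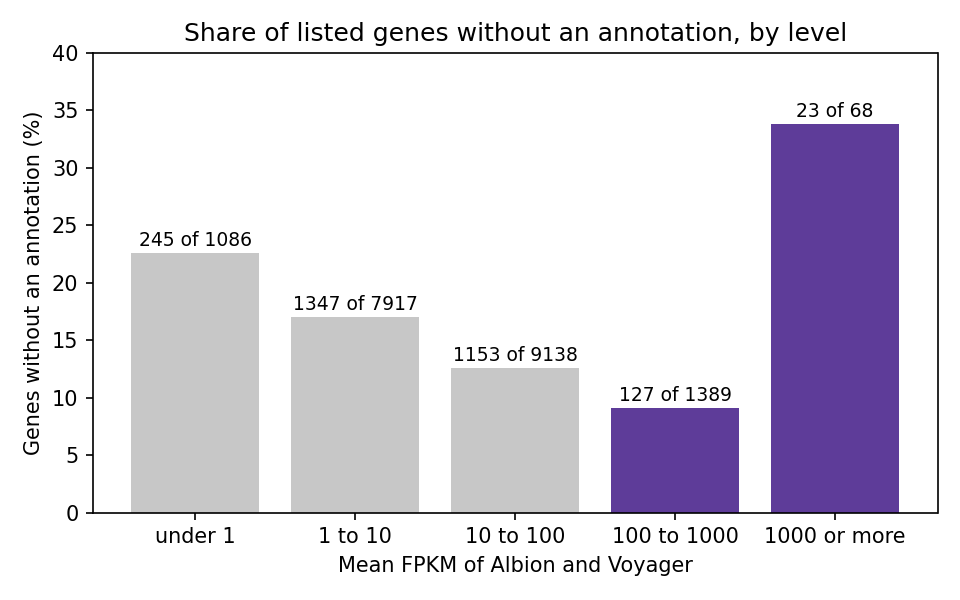
Share of listed genes without a homology annotation (y axis, percent) in 5 classes of mean FPKM (x axis), with the number of such genes of all genes above each bar. Purple bars hold the 150 genes described here, and the bar for 1000 FPKM or more (33.8%) stands above the bar for 100 to 1000 FPKM (9.14%).

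Abundance was concentrated in few of the 150 genes. The first 10 made up 55.3% of their summed FPKM in Albion and 68.3% in Voyager, while the first 50 reached 85.3% and 89.1%. The median level over the 150 genes was 236 FPKM (Albion) and 244 FPKM (Voyager). At least 100 FPKM in both genotypes was reached by 135 genes, while 11 were below it in Albion and 4 in Voyager. The 3 members closest to the threshold were Phvul.006G141600, Phvul.009G121900 and Phvul.009G043000, with means of 103, 103 and 101 FPKM. The unannotated genes just below it were Phvul.007G141600, Phvul.007G042000 and Phvul.004G022100, with means of 99.8, 98.5 and 98.1 FPKM.

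Phvul.011G204500 had the highest mean of all listed genes. It lies near the end of chromosome 11, at 48379999 to 48380486 of the v1.0 genome, and its level was 9037 FPKM in Albion but 59911 FPKM in Voyager. This was 1.09% of all FPKM in Albion and 6.31% in Voyager. In Voyager it was 3.72 times the next member, Phvul.011G204600, while in Albion it was below it, with a ratio of 0.925. Voyager summed to 119461 FPKM more than Albion over all genes, and 50873 of these, or 42.6%, came from Phvul.011G204500. All 150 genes together gave 53.0% of that difference. The other 149 members summed to 13.95% of all FPKM for Albion and 13.51% for Voyager. With Phvul.011G204500 also left out of the total, they were 14.1% and 14.4%, so which genotype had the larger share depended on the total used.

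The 4 genes of ranks 2 to 5 had means from 10591 to 12947 FPKM, and they lie on 3 chromosomes. Phvul.011G204600 (chromosome 11, 48403898 to 48404588) stood at 9769 FPKM in Albion and 16124 FPKM in Voyager. Phvul.011G157400, 384 bases long on chromosome 11 from 41495068 to 41495451, had 10031 and 14218 FPKM. Phvul.002G030000 (chromosome 2, 3121774 to 3121924) is 151 bases long and had 9784 and 12382 FPKM. Albion was the higher genotype for one of the 4, Phvul.009G211300 on chromosome 9 from 31296131 to 31296803, which had 13481 FPKM in Albion and 7701 FPKM in Voyager. It was the highest member within Albion.

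The members of ranks 6 to 20 had means from 1178 to 4318 FPKM. Phvul.002G090600 (chromosome 2, 15302193 to 15302307) had 3613 FPKM in Albion and 5024 FPKM in Voyager and is 115 bases long, the shortest locus length in the table. Phvul.001G114100 (chromosome 1, 31974071 to 31974812) had 2595 and 2619 FPKM, a near equal level. Phvul.005G027000 and Phvul.005G027300 on chromosome 5 had 3304 and 1517 FPKM in Albion and 3189 and 1296 FPKM in Voyager. Phvul.008G196700 on chromosome 8 is 136 bases long and had 1568 and 1061 FPKM, and Phvul.006G210400 on chromosome 6, at 2602 bases the longest of the first 20, had 1247 and 1162 FPKM. The remaining 9 of these 15 genes, Phvul.004G134000, Phvul.004G134100 and 7 on chromosome 11, belong to the groups of neighbours described further on.

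By chromosome, members were found on all 11 and on none of the scaffolds, where 64 genes are listed. Chromosome 2 had 26 members, chromosome 3 had 23, chromosome 7 had 20 and chromosome 11 had 18. Relative to the genes listed there, chromosome 11 came first with 1.21%, followed by chromosomes 4 (1.08%), 2 (1.06%) and 3 (1.03%). The lowest shares were 0.346% on chromosome 9, 0.351% on chromosome 1 and 0.358% on chromosome 10, against 0.765% over all listed genes. The share of abundant annotated genes ranged from 4.84% on chromosome 4 to 7.40% on chromosome 5. On chromosome 4, then, the share of annotated abundant genes was the lowest of the 11 and the share of unannotated ones the second highest.

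Chromosome 11 stood out by level more than by number. It held 10 of the 23 members above 1000 FPKM, and its 18 members summed to 39.9% of the members' FPKM in Albion and 59.3% in Voyager. Of these shares, Phvul.011G204500 alone made up 7.23% of the members' FPKM in Albion and 31.8% in Voyager. Chromosome 2 followed with 16.9% and 13.9%, with Phvul.002G030000 as the largest part. Chromosome 9 had 7 members and 11.4% in Albion and 4.58% in Voyager, where Phvul.009G211300 was the largest part. Chromosome 10 was last with 4 members, 1.04% and 0.723%. These shares describe 1 pooled value per genotype and were not tested.

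The loci of the members were short. Their median length from the listed start to the listed end was 752 bases (95% binomial confidence interval over genes, 654 to 1015). It was 2514 bases (2402 to 2652) for abundant annotated genes, 2031 bases (1928 to 2145) for unannotated genes below 100 FPKM and 3362 bases (3320 to 3409) for all listed genes. Unannotated genes were shorter than annotated ones in every class of level, so short loci were not particular to the members. The medians were 876 and 2425 bases under 1 FPKM, and 2612 and 4112 bases from 10 to 100 FPKM. From 100 to 1000 FPKM the unannotated median was 856 bases. A locus under 300 bases was found for 25 members (16.7%) and 13 abundant annotated genes (0.995%). Under 500 bases the numbers were 45 and 32 (2.45%). At the other end, 27.3% of the members and 63.6% of the abundant annotated genes were 2000 bases or longer. Among all abundant genes under 300 bases, 65.8% had no annotation, and among those of 2000 bases or more 4.70% had none.

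**Figure D2:**
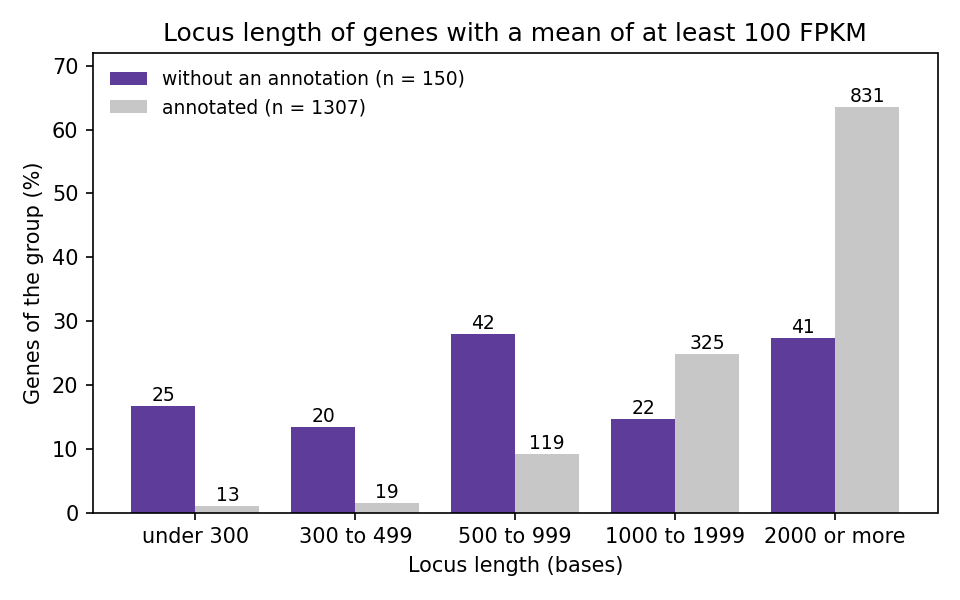
Distribution of locus length (x axis, bases, 5 classes) among genes whose mean was 100 FPKM or more, as a percentage of each group (y axis), with the number of genes above each bar. Of the 150 genes without an annotation, 25 were under 300 bases and 41 were 2000 bases or longer, against 13 and 831 of the 1307 annotated genes.

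The extremes of length differed in level. The 5 shortest members were Phvul.002G090600 and Phvul.003G168400 (115 bases each), Phvul.008G196700 (136), Phvul.002G030000 and Phvul.003G044900 (151 each), and their means ran from 116 FPKM for Phvul.003G168400 to 11083 FPKM for Phvul.002G030000. The 5 longest were Phvul.008G217500 (7695 bases), Phvul.006G056400 (7422), Phvul.002G195900 and Phvul.002G196000 (7372 each) and Phvul.009G118300 (6429), with means from 136 to 341 FPKM. Members under 300 bases had a median mean of 408 FPKM, and those of 2000 bases or more had 165 FPKM. For annotated genes of the same classes the medians were 143 and 166 FPKM. Across the 150 members the Spearman correlation between locus length and mean FPKM was -0.23, and across the 1307 abundant annotated genes it was -0.27. These are correlations across genes, which are not independent replicates, and FPKM is itself divided by length.

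The shortest loci were also peculiar in their arithmetic. For 20 of the 25 members under 300 bases, the listed end minus the listed start was a whole multiple of 3. Over all listed genes under 300 bases this held for 159 of 181 (87.8%), against 35.3% of loci of 500 bases or longer. With the usual count of 1 base more, 6.63% of the 181 were multiples of 3. This is the length that an open reading frame with no untranslated part and no intron would have if starts were counted from 0, and lengths given here would then be 1 base too long. Both sequenced ends of a fragment together cover 150 bases, and by the shorter count 5 members, among them Phvul.002G030000 and Phvul.002G090600, were no longer than that. Over all listed genes the number was 17. FPKM of such short models rests on the length correction of Cufflinks, and how far the level depends on it was not tested. Without the 25 members under 300 bases, the others summed to 12.3% of all FPKM in Albion and 16.9% in Voyager.

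Levels of most members were close in the genotypes. On the log2((FPKM + 1)/(FPKM + 1)) scale, with Voyager over Albion, 116 members (77.3%) differed by less than 1.5-fold, compared with 92.9% of the abundant annotated genes and 88.8% of all listed genes. The quartiles of the members were -0.11 and 0.46, and those of the abundant annotated genes were -0.04 and 0.24. The median was 0.18 for members (95% binomial confidence interval over genes, 0.08 to 0.27), 0.09 for abundant annotated genes and 0.07 for all listed genes. Voyager was higher for 99 members and Albion for 51. The share higher in Voyager was 66.0% of members, 67.7% of abundant annotated genes and 61.9% of all listed genes. Scaled to the same median, 94 members were higher in Voyager and 56 in Albion (62.7% in Voyager, against 55.8% of all listed genes). Scaling both genotypes to the same sum moved the median of all listed genes from 0.07 to -0.11. Then 73 members were higher in Voyager and 77 in Albion (48.7% in Voyager, against 33.4% of all listed genes). Part of that scaling comes from Phvul.011G204500 itself, through its 42.6% of the difference between the sums.

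**Figure D3:**
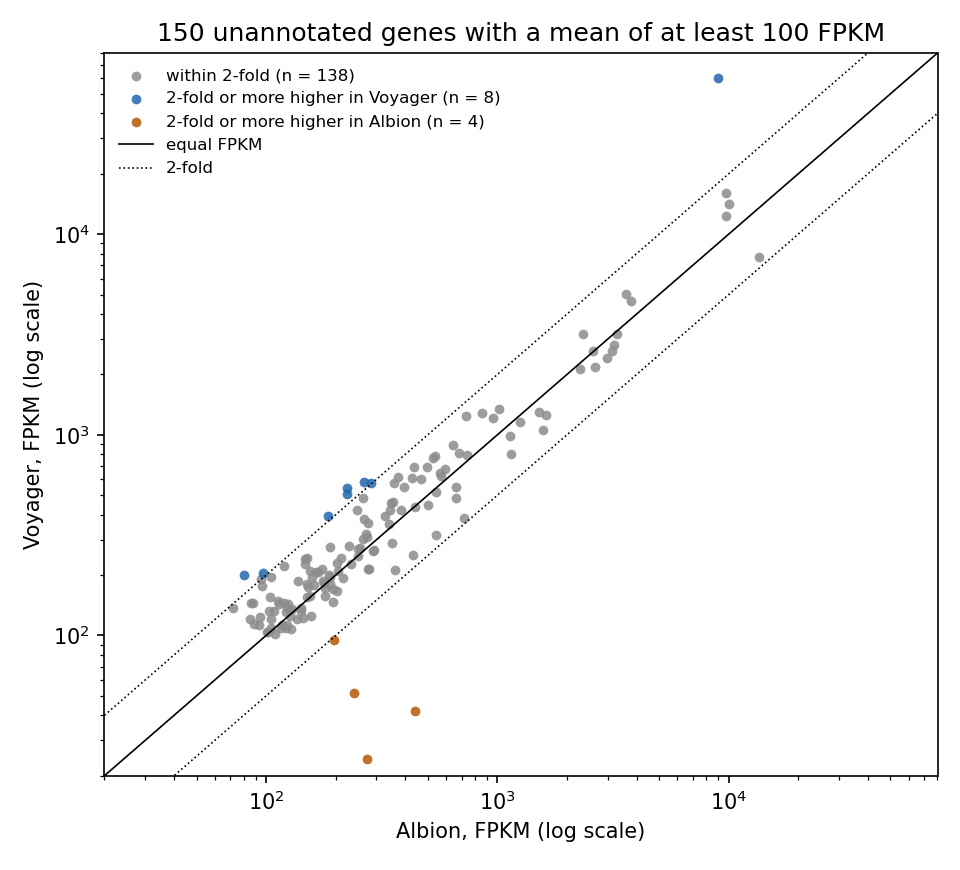
FPKM of the 150 members in Albion (x axis, log scale) and Voyager (y axis, log scale), 1 point per gene and 1 pooled value per genotype. The solid line marks equal FPKM and the dotted lines a 2-fold difference, and colour marks genes at least 2-fold apart on FPKM + 1, of which 8 were higher in Voyager (blue) and 4 in Albion (brown).

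At least a 2-fold difference was reached by 12 members. Of these, 8 were higher in Voyager (5.33%), where 2.55% of all listed genes, 2.06% of all those at 100 FPKM or more and 1.68% of the abundant annotated genes passed the same fold. The other 4 were higher in Albion (2.67%), against 1.76%, 1.03% and 0.842%. The difference between these shares was not tested. With both genotypes scaled to the same sum, the counts became 3 in Voyager and 6 in Albion, where 1.83% and 2.31% of all listed genes passed. Scaled to the same median, they were 7 and 4, against 2.36% and 1.83% of all listed genes. No replicate value stands behind a fold, so these counts describe pooled values.

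Among the 8 genes higher in Voyager, Phvul.011G204500 had the largest ratio, 6.63-fold. The next was Phvul.004G162800 on chromosome 4, with 80.2 FPKM in Albion and 201 FPKM in Voyager (2.51-fold). Phvul.003G174200 on chromosome 3 had 224 and 541 FPKM (2.42-fold). The chromosome 8 genes Phvul.008G199200, Phvul.008G179700 and Phvul.008G141300 each differed by 2.15-fold to 2.26-fold, so 3 of the 8 lay on chromosome 8, which held 11 members. Phvul.002G028400, at 97.2 and 205 FPKM, and Phvul.006G116900, at 284 and 572 FPKM, were closest to the limit. In Albion, Phvul.004G162800 and Phvul.002G028400 were under 100 FPKM, so both entered by their Voyager level.

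The 4 genes higher in Albion included the largest relative differences of all members. Phvul.003G018800 had 273 FPKM in Albion and 24.2 FPKM in Voyager, an 11.3-fold difference. Phvul.003G018900 had 438 and 42.0 FPKM, or 10.4-fold, and lies beside it. Phvul.007G046200 on chromosome 7 followed with 239 and 51.7 FPKM (4.63-fold). The last was Phvul.011G185600, with 196 and 94.5 FPKM (2.08-fold). In Voyager each of these 4 genes was under 100 FPKM, so each entered by its Albion level.

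Members were often listed beside each other. A member was next to another member, with no other listed gene between them, for 36 of the 150 genes (24.0%), in 14 runs of 2 to 5 genes. Abundant annotated genes were next to a gene of their own class for 19.1%, although that class is larger (1307 genes). For unannotated genes under 100 FPKM, a class of 2745, it was 31.5%. Of the 300 positions on either side of a member, which 289 genes held because some flanked 2 members, 36.7% held a gene with no annotation. This compared with 13.8% of the positions beside abundant annotated genes and 14.8% of those beside all listed genes. Beside unannotated genes under 100 FPKM it was 19.0%. Leaving out positions held by members, 25.8% had none. A gene of at least 100 FPKM stood in 18.3% of the positions beside members and 10.8% of those beside abundant annotated genes. The nearest listed gene lay a median of 3756 bases away from a member and 3635 bases from an abundant annotated gene. Genes that are not listed can lie between listed ones.

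The largest group lies near the end of chromosome 11. Between 48322475 and 48479555, a stretch of 157 kb, 14 genes are listed, none of them has an annotation, and 9 are members. These 9 genes summed to 3.77% of all FPKM in Albion and 9.12% in Voyager, which was 25.1% and 46.0% of the members' total. Phvul.011G204500 alone was 1.09% of all FPKM in Albion and 6.31% in Voyager, so most of the difference between these sums came from it. The other 5 genes of the stretch had means of 2.70 to 43.2 FPKM. Phvul.011G204400, for example, had 5.66 FPKM in Albion and 8.64 FPKM in Voyager, with 7275 bases between it and Phvul.011G204500.

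Within that stretch the genotypes differed in opposite directions in adjacent runs. In the first run, Phvul.011G204500, Phvul.011G204600 and Phvul.011G204700 were each higher in Voyager, with log2 differences of 2.73, 0.72 and 0.58. Phvul.011G204700 was the least abundant of them, with 104 FPKM in Albion and 155 FPKM in Voyager. In the second run, the 5 genes from Phvul.011G205200 to Phvul.011G205600 were each higher in Albion, with log2 differences from -0.40 to -0.19. Apart from Phvul.011G205200 (195 and 147 FPKM) these were nearly equal in level, from 2631 to 3202 FPKM in Albion and from 2178 to 2808 FPKM in Voyager. The direction of every gene in both runs was the same with both genotypes scaled to the same sum or the same median. The member at the start of the stretch, Phvul.011G204000, had 292 FPKM in Albion and 267 FPKM in Voyager.

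**Figure D4:**
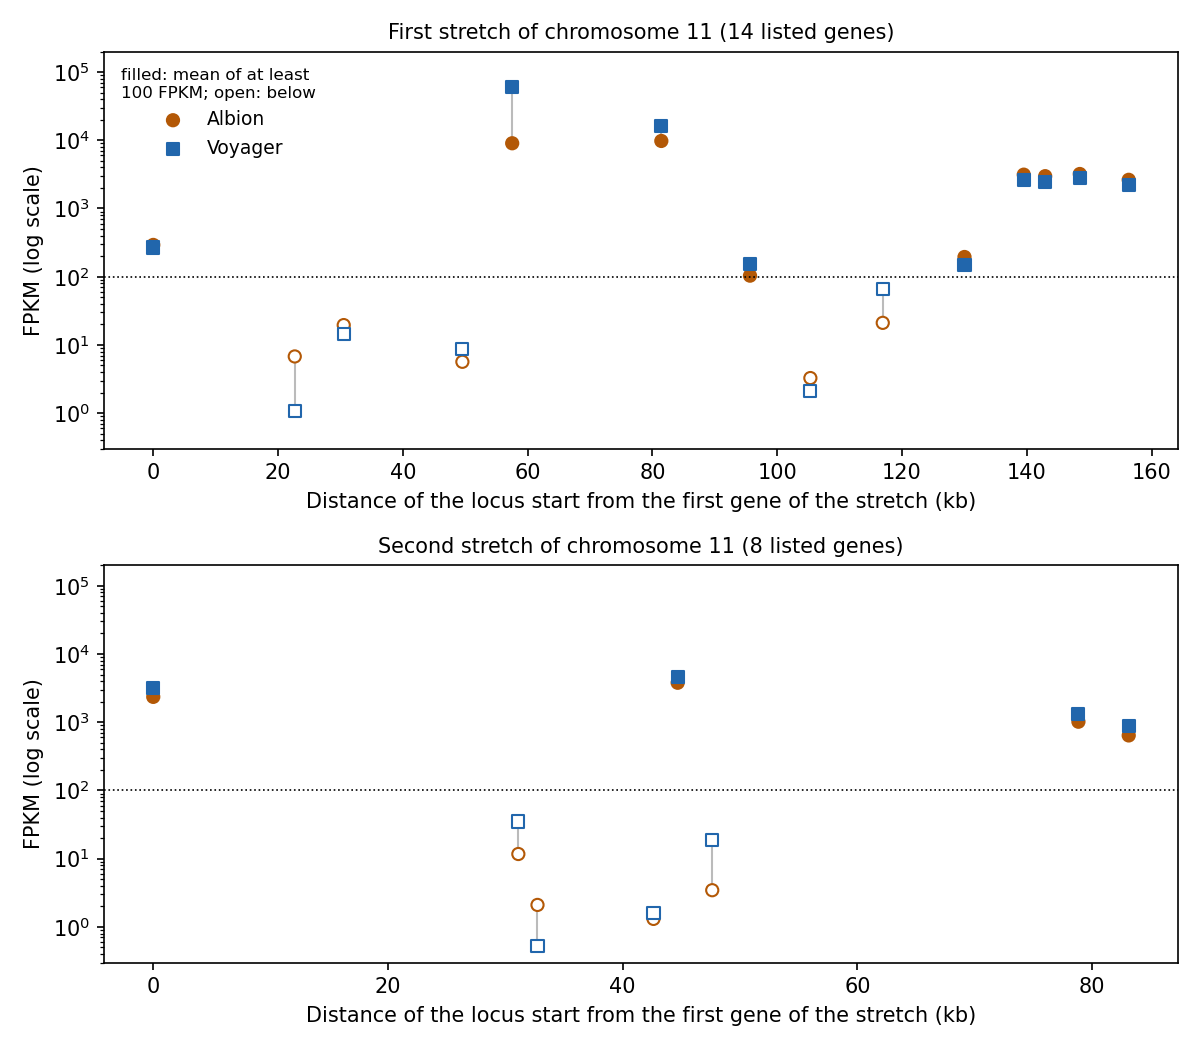
FPKM (y axis, log scale) in Albion (circles) and Voyager (squares) of every listed gene in a pair of chromosome 11 stretches, placed by the distance of the locus start from the first gene (x axis, kb). Filled symbols are members and open symbols are genes with a mean under 100 FPKM (dotted line), and in the upper panel the 5 open genes had means of 2.70 to 43.2 FPKM while Phvul.011G204500 had 59911 FPKM in Voyager.

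A second stretch of chromosome 11, of 84.2 kb between 21156312 and 21240472, holds 8 listed genes, again with no annotation, and 4 are members. Phvul.011G121000 was the highest, with 3790 FPKM in Albion and 4648 FPKM in Voyager. Phvul.011G120500 had 2354 and 3171 FPKM, Phvul.011G121200 had 1018 and 1339 FPKM and Phvul.011G121300 had 640 and 887 FPKM. All 4 were higher in Voyager, by 0.29 to 0.47 on the log2 scale, and remained so with both genotypes scaled to the same sum. The other 4 genes had means of 1.31 to 23.4 FPKM. One of them, Phvul.011G121100, starts 1981 bases after the end of Phvul.011G121000 and had 3.45 and 19.0 FPKM.

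The genes with the largest relative difference also formed a group. On chromosome 3, between 1660443 and 1671202, 4 unannotated genes are listed in a row with lengths of 690 to 889 bases. Phvul.003G018800 and Phvul.003G018900 were followed by Phvul.003G019000, which was just under the threshold with 172 FPKM in Albion and 16.5 FPKM in Voyager. The ratios of Albion to Voyager were 11.3, 10.4 and 10.4 for these genes. The gene before them, Phvul.003G018700, differed in the opposite direction, with 63.4 FPKM in Albion and 97.2 FPKM in Voyager. Reads that map to near-identical copies can be shared between them, and whether these genes are copies of each other was not tested.

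Over the 14 runs, all members of a run were higher in Voyager for 9 runs and higher in Albion for 3, and 2 runs were mixed. With both genotypes scaled to the same sum, the numbers were 5, 4 and 5. The range of log2 differences within a run was under 0.5 for 8 runs. In the chromosome 4 run from Phvul.004G038400 to Phvul.004G038600 the 3 differences lay between 0.61 and 0.92, and in the chromosome 2 run of Phvul.002G203700 (854 and 1280 FPKM) and Phvul.002G203800 (371 and 614 FPKM) they were 0.58 and 0.73. The widest range was in the chromosome 7 run, where Phvul.007G046200 was 4.63-fold higher in Albion while Phvul.007G046300, separated from it by 10892 bases, had 187 FPKM in Albion and 201 FPKM in Voyager.

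**Figure D5:**
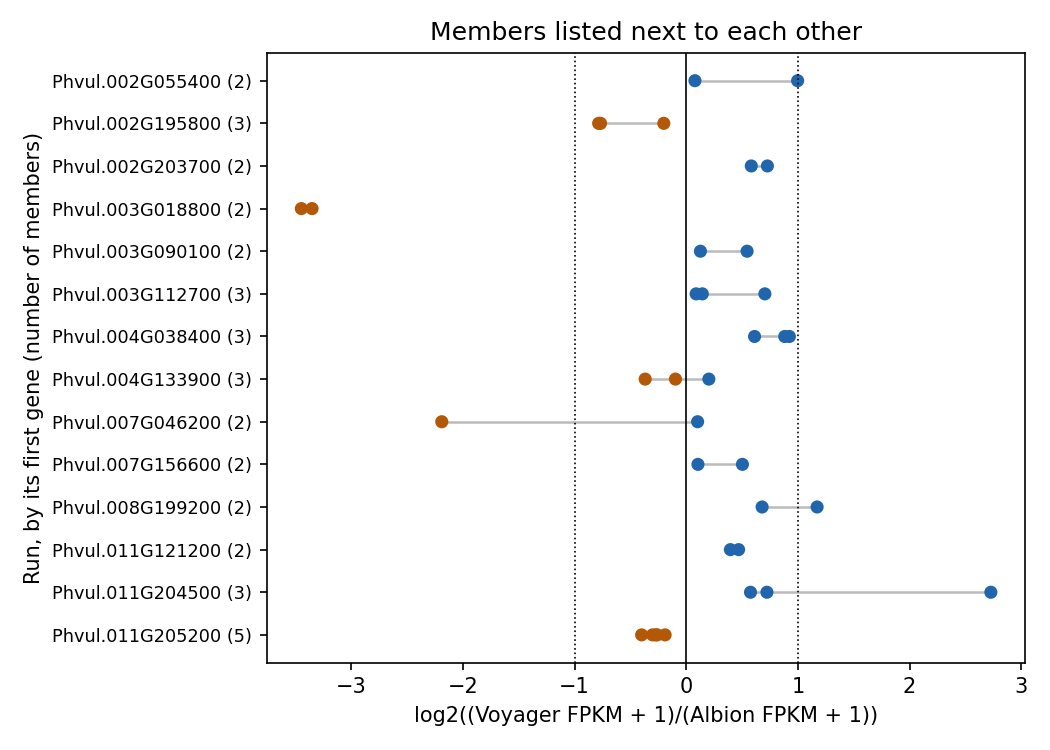
Difference between the genotypes (x axis, log2((Voyager FPKM + 1)/(Albion FPKM + 1))) for the 36 members that are listed next to another member, 1 row per run, named by its first gene with the number of members in brackets. Points right of the solid line are higher in Voyager (blue) and left of it higher in Albion (brown), and dotted lines mark 2-fold. Of the 14 runs, 12 lie on 1 side, and the same was not counted for other neighbouring genes.

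Other runs held abundant genes with smaller differences. On chromosome 4 the run of Phvul.004G133900, Phvul.004G134000 and Phvul.004G134100 lies between 41171188 and 41187033. Phvul.004G134000 had 2286 FPKM in Albion and 2138 FPKM in Voyager, Phvul.004G134100 had 1622 and 1257 FPKM, and Phvul.004G133900 had 563 and 648 FPKM. The annotated gene after them, Phvul.004G134200 (Protein of unknown function, DUF599), had a mean of 5.46 FPKM. On chromosome 3, Phvul.003G090100 had 528 and 771 FPKM and Phvul.003G090200 had 571 and 624 FPKM. A run on chromosome 2 could not be resolved, since Phvul.002G195900 (360 and 211 FPKM) and Phvul.002G196000 (432 and 250 FPKM) are listed with the same locus, 35295870 to 35303241, and reads could be split between them. They were the 2 members whose locus overlaps another listed one.

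The 10 most abundant members stood beside other members or, for the most part, beside genes of low level. Members held 7 of the 20 positions beside them. All 7 were beside Phvul.011G204500, Phvul.011G204600, Phvul.011G205300 and Phvul.011G205500, in the stretch near the end of chromosome 11. The rest of the 10 had no member beside them. Over all listed genes, 7.44% of such positions held a gene of at least 100 FPKM. Of the 19 flanking genes of these 10, 6 were members, and the other 13 had means from 0.655 to 98.2 FPKM, with 10 of them under 10 FPKM. The median of the 13 was 5.3 FPKM, and that of all listed genes was 11.6 FPKM. The 13 leave out flanking members, while the value for all listed genes leaves out none. Over the flanking positions of all 150 members the median was 15.8 FPKM. It was 13.9 FPKM beside abundant annotated genes and 11.6 FPKM beside all listed genes. Phvul.002G030000 lies between Phvul.002G029900 (0.49 FPKM in Albion and 2.39 FPKM in Voyager) and Phvul.002G030100 (0.68 FPKM in Albion, with a mean of 1.54 FPKM), both unannotated. Phvul.011G157400 is flanked by Phvul.011G156900, annotated as a TCP family transcription factor, a class known for the control of organ growth, with 7.39 and 7.74 FPKM. These 2 loci lie 157409 bases apart. On the other side of Phvul.011G157400, at 10775 bases, is the tyrosine transaminase gene Phvul.011G157500 with 4.96 and 3.00 FPKM. Phvul.002G090600 lies between a ribosomal protein L20 gene, Phvul.002G090500 (3.96 and 6.55 FPKM), and Phvul.002G090800, a homologue of the bacterial division protein MinE (21.4 and 21.5 FPKM). Phvul.005G027000 and Phvul.005G027300 enclose the response regulator gene Phvul.005G027100, whose family acts in cytokinin signalling, with 0.50 and 0.81 FPKM. On its other side Phvul.005G027000 is flanked, at 41549 bases, by Phvul.005G026800, which is listed at 0 in Albion and had 18.6 FPKM in Voyager.

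Of the 13 flanking genes that were not members, the one with the highest mean is annotated. Phvul.009G211300 is preceded by Phvul.009G211200, annotated to the bifunctional inhibitor, lipid transfer protein and 2S albumin superfamily of small cysteine-rich seed and surface proteins. The genotypes differed in opposite directions for these neighbours, since Phvul.009G211200 had 35.5 FPKM in Albion and 161 FPKM in Voyager while Phvul.009G211300 was higher in Albion. Another gene of this superfamily, Phvul.008G199100 (596 and 619 FPKM), precedes the less abundant members Phvul.008G199200 (223 and 505 FPKM) and Phvul.008G199300 (358 and 574 FPKM) on chromosome 8. Between Phvul.008G199100 and Phvul.008G199200 lie 46058 bases.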

How the data were processed

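Developing pods of Albion and Voyager were sequenced from 3 replicate pots each. Reads were quality filtered by the authors (FASTX-Toolkit) and mapped with TopHat 1.4.1 and Bowtie 0.12.7 to the P. vulgaris v1.0 genome. FPKM values were estimated by the authors with Cufflinks 1.3.0 and Cuffdiff and deposited as 1 pooled value per gene and genotype. Each of the 19598 genes has the status OK. The deposited fold changes, test statistics, p-values and q-values are the authors' own comparison and were not used.

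Positions were read from the locus column and are given as listed. Locus length was the end minus the start plus 1. Differences were computed as log2((Voyager FPKM + 1)/(Albion FPKM + 1)), and a log2 difference of 1 or more, or of -1 or less, was taken as 2-fold, since no test was possible with pooled values. Flanking genes were the listed genes next along the chromosome. Computations used pandas 2.3.3, scipy 1.17.1 and numpy 2.4.6 under Python 3.11.15, matplotlib 3.10.9 drew the figures, and the counting steps were checked on simulated data. None of the members' identifiers occurs in the RefSeq table used for names (assembly v2.0), and sequences were not analysed here.

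The members and the lists were chosen with earlier results of these data known. The genes named are the 20 highest members, those past 2-fold (up to 10 each way), those next to another member, the 5 shortest and 5 longest loci, 3 on each side of the threshold and the flanking genes of the 10 highest. Not all of these are named individually. Phvul.003G018700, Phvul.003G019000, Phvul.004G134200, Phvul.008G199100, Phvul.011G204000 and the other listed genes of the described stretches were named after their values were seen. Alternatives covered the threshold, the pseudocount, the fold, the scaling, overlapping and short loci and the highest member. Weighting by locus length and the length without the added base were added after seeing the data.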

Additional observations from a re-analysis of the deposited data

How the results depend on the processing

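The direction of the median log2 difference of the members (0.18) depended on the scaling, and it was -0.0129 with both genotypes scaled to the same sum. It stayed between 0.11 and 0.19 under the other alternatives. The number of members was 302 with a mean of at least 50 FPKM and 83 with at least 200 FPKM. The threshold of 50 FPKM gave shares of summed FPKM of 16.25% in Albion and 20.94% in Voyager, 8 members at least 2-fold higher in Albion and a median locus length of 1442 bases. The threshold of 200 FPKM gave shares of 13.93% and 18.75%, 1 member higher in Albion and 21 members next to another member. With at least 100 FPKM required in each genotype, the shares were 14.8% and 19.6%, and 0 members were higher in Albion and 6 in Voyager by this fold, since members under 100 FPKM in either genotype drop out. At these changed thresholds the fold was not counted over other genes. Without members that overlap another listed locus the share in Albion was 14.95%. Without loci under 300 bases the shares were 12.3% and 16.9%, both of the full sum. With the highest member left out of the members and of the sum they were 14.1% and 14.4%, against 13.95% and 13.51% of the full sum. Weighting by locus length gave 4.09% and 4.89%. Scaled to the same sum, 3 members were at least 2-fold higher in Voyager, where 1.83% of all listed genes were. A fold of 1.5 gave 25 members in Voyager and 9 in Albion. The share that stayed within this fold was 77.3% of members, 92.9% of abundant annotated genes and 88.8% of all listed genes. No paired analysis was possible because the columns hold pooled values, and for the same reason no replicate could be left out. The depth behind a value is unknown, and exon lengths were not used here.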
